A study of Homo sapiens with 6 samples.

Results

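Of the break regions that the ATRi+APH list holds on chromosomes 2 to 22, 268 stood alone and were 200 bp or wider, and these solitary wide regions are described here. The whole list has 1133 regions, 877 of them on these chromosomes. Regions were kept when the summit, the base of highest pull-down signal, lay at least 100 kb from both chromosome ends and over 2 Mb outside the centromere bands, which left 811. The members were then selected on measured values of the list itself: the nearest other kept summit over 50 kb away, and a width of 200 bp or more. The contrast is with the 274 solitary regions under 200 bp, called narrow below, and at places with the 269 clustered regions, whose nearest kept summit is within 50 kb. Width, spacing, fold, reads and summit place all come from the contrast that chose the members, so they are given as descriptions with no test, and intervals are 95% intervals with no part for replicate error. They are Clopper-Pearson (exact) for a share and exact Poisson for a read count, both covering counting error only, and come from the binomial distribution of the ranks for a median.

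The cells are MDA-MB-231, an established human triple-negative breast cancer line. For 9 h they received either DMSO, the solvent control, or ATRi+APH, which is 0.5 µM VE-822, an inhibitor of the ATR kinase, with 0.2 µM aphidicolin, an inhibitor of the replicative DNA polymerases. Each condition has 2 pull-down libraries made by BrITL, in which the ends of broken DNA are tagged with a biotin-bearing nucleotide and captured, and 1 input library of the same treatment. Both pull-down libraries of a condition were pooled before regions were called, so no value has a replicate spread, and the labels do not say whether the libraries came from separate cultures.

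A replication fork slowed by aphidicolin exposes single-stranded DNA, on which ATR is activated through its partner ATRIP. ATR signalling then holds back new origins and protects the stalled fork, and without it forks can collapse into breaks. Collapse is known to favour sequences that are hard to copy, such as repeats that fold into secondary structures, and long genes in which few origins fire.

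The solitary wide regions were short and modestly enriched. Their median width was 339.5 bp (quartiles 257 and 525.5, highest 1088), where the shortest region of the whole list was 78 bp. There were 61 members under 250 bp, 99 from 250 to under 400 bp, 84 from 400 to under 700 bp and 24 of 700 bp or more. The authors' fold enrichment, the pull-down pileup over the local background at the summit, ran from 3.38 to 7.22 with a median of 4.32 (quartiles 4.12 and 4.61), against a median of 4.22 (quartiles 4.10 and 4.46) in narrow regions and 4.32 (quartiles 4.06 and 4.93) in clustered ones. A fold of 5 or more was found at 38 members (14.2%, interval 10.2 to 18.9), 18 narrow regions (6.57%, interval 3.94 to 10.2) and 63 clustered regions (23.4%, interval 18.5 to 28.9). Members with high folds were thus a minority of the class, and their values lay inside the range of the clustered regions.

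**Figure D1:**
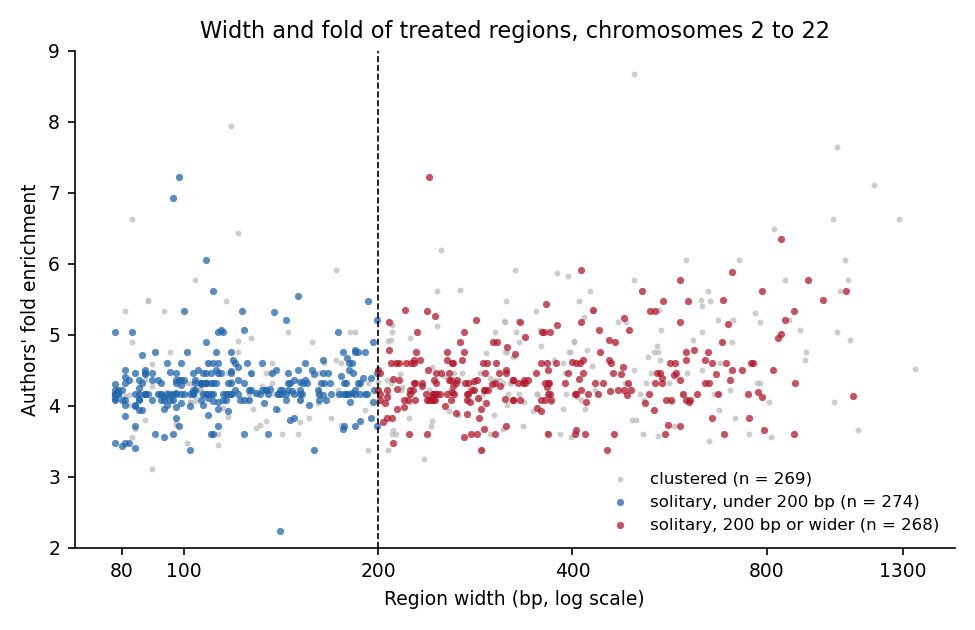
Authors' fold enrichment (vertical axis) against region width in bp (log scale) for the 811 kept treated regions, 1 point a region, with a dashed line at the 200 bp limit. Folds of solitary regions overlap widely across the line, from 3.38 in members and 2.24 in narrow regions upward, with the members' median at 4.32 and the narrow regions' at 4.22, and the highest fold on both sides is 7.22.

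Reads at each summit were worked back from fold and significance. Members held 27 to 48 pooled pull-down reads at the summit, with a median of 30 (quartiles 28 and 32), and 50 members stood at 27 reads, the lowest of the list. At 27 reads the exact Poisson interval runs from 17.8 to 39.3, and at 48 reads from 35.4 to 63.6, so most single members cannot be ranked against each other by their reads. Narrow regions held 27 to 85 reads (median 29), and the one with 85 lay on a background of 7.22 times that of the genome, where the members' background reached 2.06 times. The local background equalled the genome background at 115 members (42.9%, interval 36.9 to 49.1) and 130 narrow regions (47.4%, interval 41.4 to 53.5). Among these, members had a median fold of 4.46 and narrow regions of 4.32.

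Wider members tended to be a little stronger. The 121 members with 27 to 29 reads had a median width of 314 bp, the 105 with 30 to 34 reads 357 bp, and the 42 with 35 or more reads 500 bp. The Spearman correlation of width and fold over the 268 members was 0.198, a weak relation among points that share the same pooled libraries. In narrow regions, whose widths the 200 bp limit caps, the same 3 classes of reads had median widths of 111, 113.5 and 117 bp. Their Spearman correlation of width and fold was 0.165, close to that of the members. Among regions at genome background it was 0.18 in members and 0.0815 in narrow regions.

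The 200 bp limit ran through a continuous range of widths. The 5 narrowest members were 200 or 201 bp wide, at 5q35.1, 6q14.1, 3p23, 7q22.1 and 18p11.22, with folds of 4.22, 4.50, 4.46, 4.08 and 4.17. The 5 widest solitary regions below the limit were 196 to 199 bp wide, at 5q22.1, 11p15.2, 11p13, 12q24.31 and 10p12.1, with folds of 4.46, 3.71, 5.21, 4.22 and 4.05. Values on the narrow side of the limit spanned those on the wide side.

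The strongest member lay in 13q12.3 (hg19, chromosome 13, 31418248 to 31418487), 240 bp wide, with a fold of 7.22 and 48 reads, and a −log10 q of 11.6 in the authors' deposited table. The second, at 2p13.3 (chromosome 2, 68675601 to 68676442), was 842 bp wide with a fold of 6.35 and 42 reads, and each of these read counts lay inside the Poisson interval of the other (35.4 to 63.6 and 30.3 to 56.8). Then came 8q22.3 (chromosome 8, 105089132 to 105089544, fold 5.91) and 14q21.2 (chromosome 14, 45387024 to 45387731, fold 5.89), each with 39 reads. These 4 lay on 4 chromosomes and in pale G-negative bands, as did 50.75% of all members. Pale bands are the cytogenetic class that is generally gene-rich and replicates early. These 4 bands held 4.55, 12.1, 5 and 2.43 coding genes per Mb in that order, where the median over length was 4.545.

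Next by fold were 5q15 (chromosome 5, 97566514 to 97567101) and 6p23 (chromosome 6, 14693564 to 14694492), both at a fold of 5.77 with 38 reads. The members at 3p25.1 (chromosome 3, 13325213 to 13325998), 4q32.3 (chromosome 4, 166461193 to 166462255) and 12q23.3 (chromosome 12, 106295569 to 106296080) shared a fold of 5.62 with 37 reads each. Those at 7q21.11 (chromosome 7, 83549372 to 83550055) and 19q13.42 (chromosome 19, 54486636 to 54487614) shared 5.49 with 37 reads, and 2p12 (chromosome 2, 78817850 to 78818402) had 5.48 with 36 reads. From the third to the twelfth member the folds ran from 5.91 to 5.48 and the reads from 39 to 36, a difference far inside the counting error of any of them.

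The bands of these members ranged from gene-poor to gene-rich. Band 19q13.42 holds 104 protein-coding genes of the RefSeq annotation at 38.5 per Mb, while 7q21.11 holds 11 at 1.25 per Mb and 2p12 holds 13 at 1.57 per Mb. The longest genes of the 2 poor bands are MAGI2 (1437 kb), a synaptic and junctional scaffold protein, and CTNNA2 (1463 kb), an alpha-catenin that links cadherins to actin. Band 4q32.3, with 19 coding genes, has MARCHF1 (860 kb), a membrane-bound ubiquitin ligase, as its longest. A band spans several Mb, and whether a region lies within a given gene was not analysed here.

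The 2 members over 1000 bp lay at 18q12.1 (chromosome 18, 25433833 to 25434920, 1088 bp, fold 4.13, 42 reads) and 4q32.3 (1063 bp, fold 5.62). The 18q12.1 region had many reads but a modest fold, and its background was 1.72 times that of the genome. The next widest were 19q13.42 (979 bp), 6p23 (929 bp), 17q11.2 (chromosome 17, 29719563 to 29720447, 885 bp, fold 4.32), 2p14 (chromosome 2, 68250744 to 68251626, 883 bp, fold 3.60), 10p12.33 (chromosome 10, 17496933 to 17497815, 883 bp, fold 5.33) and 8q24.13 (chromosome 8, 125313146 to 125314000, 855 bp, fold 5.21). Of these 8 widest members, 3 were also among the 12 strongest. Clustered regions reached farther, with 12 of 269 at 1000 bp or more against 2 of 268 members.

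The lowest folds belonged to members on raised background, which follows from the fold being a ratio to that background. At genome background, the lowest read count of the list, 27, already gave a fold of 4.17. They were 3.38 at 10p15.1 (chromosome 10, 4538717 to 4539005) and at 7q22.1 (chromosome 7, 98077813 to 98078265), 3.47 at 9p21.2 (chromosome 9, 26333347 to 26333557) and 3.57 at 17p11.2 (chromosome 17, 20058355 to 20058626). Their backgrounds were 1.72, 2.06, 1.72 and 1.72 times that of the genome, and they held 34, 40, 35 and 36 reads, above the members' median of 30. A raised background also asks for more reads to reach the same significance.

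The place of the summit differed between wide and narrow solitary regions taken as classes, and clustered regions are not compared here. In narrow regions the summit lay near the centre, inside the middle 33.3% of the width in 207 of 274 (75.5%, interval 70.0 to 80.5). In members it lay there in 88 of 268 (32.8%, interval 27.2 to 38.8). The first 20% of the width held 45 member summits and the last 20% held 36, together 81 (30.2%, interval 24.8 to 36.1), against 6 and 5 in narrow regions (together 4.01%, interval 2.02 to 7.07). These ends make up 40% of the width, so in both classes fewer summits lay near the edges than that share of the width. Summits were not drawn to one side, with 132 of 268 nearer the start of the region (49.3%, interval 43.1 to 55.4).

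The share of central summits was not a steady function of width. It was 78.2% (interval 68.0 to 86.3) in regions of 78 to under 100 bp, 89.8% (interval 82.9 to 94.6) from 100 to under 150 bp and 47.8% (interval 35.6 to 60.2) from 150 to under 200 bp. It reached its lowest value just above the limit, at 16.4% (interval 8.15 to 28.1) from 200 to under 250 bp. Wider members stood at 34.3% (interval 25.1 to 44.6) from 250 to under 400 bp, 40.5% (interval 29.9 to 51.7) from 400 to under 700 bp and 41.7% (interval 22.1 to 63.4) beyond. Off-centre summits were thus most frequent in the narrowest members, and the interval of that class overlapped those of 250 to under 400 bp and of 700 bp or more. The interval of narrow regions from 150 to under 200 bp overlapped that of every member class from 250 bp up.

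In bases, the summit of a member lay a median of 83 bp from the nearer edge (quartiles 56.8 and 152, n = 268), against 44.5 bp in narrow regions (quartiles 37 and 56, n = 274). In members of 200 to under 250 bp the median was 56 bp to the nearer edge and 167 bp to the farther one. From 250 to under 400 bp it was 76 and 210 bp, from 400 to under 700 bp 140.5 and 380.5 bp, and beyond that 273.5 and 553.5 bp. Within 78 bp of an edge, the length of the shortest region, lay 129 member summits (48.1%, interval 42.0 to 54.3). The most extreme was at 9q31.2, 14 bp from the edge or at 1.71% of the width. The 4 members of 14q12 all had their summit in the first part of the region, at 15.8, 17.5, 21 and 25.9% of the width. Other bands with 4 members did not share this. Their summits ran from 14.6 to 84.8% in 7q21.11 and from 20.8 to 68.2% in 7q22.1. They ran from 6.86 to 87.5% in 12q23.1 and from 17 to 84% in 15q21.3.

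**Figure D2:**
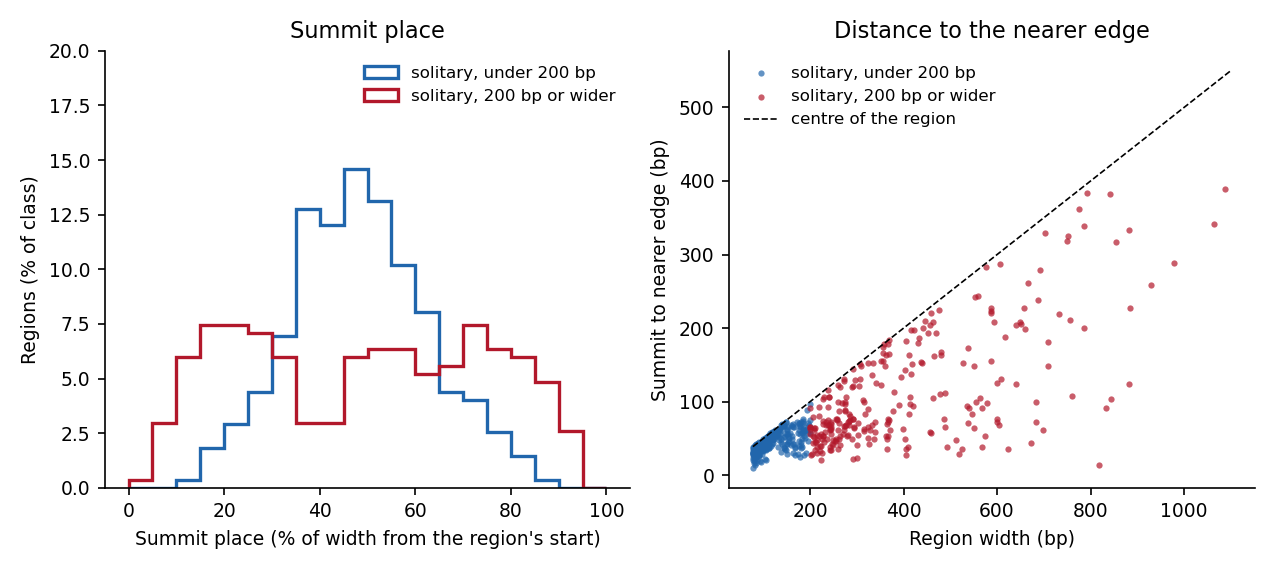
Left, the share of regions (%) by summit place, in % of the width from the region's start, for solitary regions of 200 bp or wider and under 200 bp. Right, the distance from summit to nearer edge (bp) against width (bp), 1 point a region, with the dashed line at the region's centre. Narrow regions peak at the middle and hug the dashed line, while the members' summits are less central, with 30.2% of them in the outermost 20% on either side, which together make up 40% of the width.

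Solitary in the list did not mean far from other members of it in every case. The nearest kept summit was a median of 657 kb from a member (quartiles 200 and 1571 kb), against 507 kb from a narrow region (quartiles 175 and 2007 kb). For 32 members (11.9%) it lay within 100 kb, for 101 (37.7%) over 1 Mb away and for 23 (8.58%) over 5 Mb away. The nearest kept region was another member for 107 members (39.9%, interval 34 to 46.1), a narrow region for 118 (44.0%) and a clustered one for 43 (16.0%). For narrow regions it was a member in 124 cases (45.3%), another narrow region in 103 (37.6%) and a clustered one in 47 (17.2%), so both solitary classes were interleaved along the chromosomes. The most isolated member, chosen after its value was seen, was at 18q22.2 (chromosome 18, 68128503 to 68128914, 412 bp, fold 5.19), with 42694 kb to the nearest kept summit.

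The peak names carry a running number that rises with position along each chromosome, up to 10154, so the 1133 listed regions make up 11.2% of the numbers. Between the listed regions on either side of a member, a median of 19 numbers were absent from the list (quartiles 11 and 27, lowest 1, highest 82, n = 262 members with a listed region on both sides), over a median of 3.46 Mb. Narrow regions had a median of 18 (n = 264) and clustered regions of 8 over 0.749 Mb. Per Mb this came to a median of 5.58 absent numbers around members, 4.48 around narrow regions and 7.53 around clustered ones. All absent numbers over the whole length of chromosomes 2 to 22 came to 2.81 per Mb. That value is a total over a length with centromeres and assembly gaps, so it cannot be set against the medians. Only 8 members (2.99%, interval 1.30 to 5.80) had a listed region as the direct neighbour by number on at least 1 side, against 170 clustered regions (63.2%, interval 57.1 to 69.0). The classes were chosen by the distance to the nearest kept summit. The contrasts with clustered regions in absent numbers and direct neighbours therefore follow in large part from that rule. These counts read the numbers as the order of peaks in a longer list, which no label or header states, and the step that left numbers out is not known here. The positions and values behind the absent numbers are not analysed here.

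**Figure D3:**
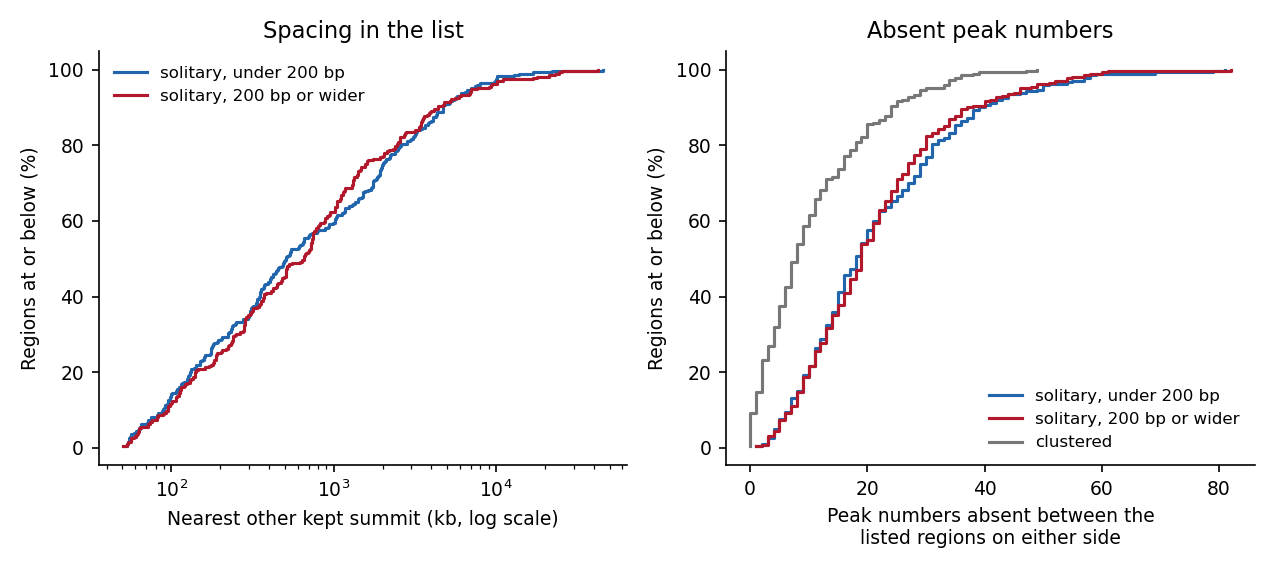
Left, the cumulative share of solitary regions (%) by distance to the nearest other kept summit (kb, log scale). Right, the cumulative share (%) by the count of peak numbers absent from the list between the listed regions on either side. The curves of wide and narrow solitary regions lie close together, with medians of 19 and 18 absent numbers, and the clustered regions lie to their left with a median of 8. Clustered regions were chosen by close spacing, so their place follows in large part from that rule.

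Members were found on all of chromosomes 2 to 22, with the highest counts on chromosome 5 with 27, chromosome 12 with 23, chromosomes 6 and 10 with 20 each and chromosome 2 with 19. Chromosomes 7, 15, 9, 4, 17 and 16 held 18, 17, 16, 15, 14 and 13. Chromosome 3 held 12, and chromosomes 8, 11 and 14 held 11 each. The fewest were on chromosomes 18, 13, 19, 20, 22 and 21, with 6, 5, 4, 3, 2 and 1. Per 100 Mb, chromosomes 17 (17.2), 12 (17.2) and 15 (16.6) were densest, and chromosomes 21 (2.08), 22 (3.90), 13 (4.34) and 20 (4.76) sparsest. Relative to share of length, narrow regions were also frequent on chromosomes 17, 12 and 15 (1.42, 2.01 and 1.69 times). They were also sparse on chromosomes 21, 22 and 13 (0.399, 0.562 and 0.667 times), but not on chromosome 20 (1.37 times). Length here is that of the whole chromosome, with assembly gaps and the places that the rule left out. Copy number of these chromosomes was not measured, and its part in the counts was not tested.

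The balance of wide and narrow regions varied between chromosomes. Among all 542 solitary regions 49.4% were wide (interval 45.2 to 53.7). On chromosome 6 it was 20 of 29 (69.0%, interval 49.2 to 84.7), on chromosome 9 16 of 27 (59.3%, interval 38.8 to 77.6), on chromosome 3 12 of 31 (38.7%, interval 21.8 to 57.8) and on chromosome 20 3 of 12 (25%, interval 5.49 to 57.2). The interval of every chromosome included the overall 49.4%, so at these counts no chromosome stood out by its share of wide regions. Set against the peak numbers of each chromosome, members made up at most 5.66 per 100 numbers on chromosome 18 and 5.33 on chromosome 9. The lowest rates were 1.42 on chromosome 20, 2.05 on chromosome 14 and 2.15 on chromosome 7. Narrow regions made up 2.83, 3.67, 4.265, 2.42 and 2.98 per 100 numbers on these chromosomes, in that order. The rates carry no interval, and those of chromosomes 18 and 20 rest on 6 and 3 members.

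**Figure D4:**
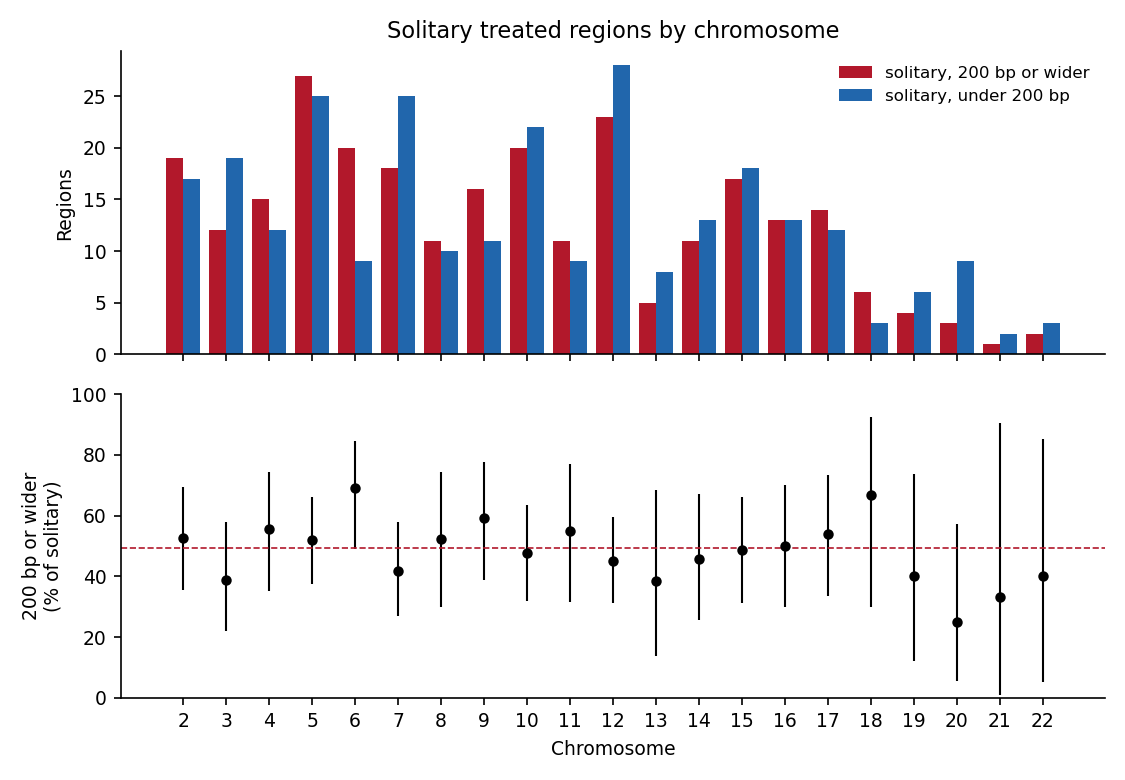
Top, the number of solitary regions of 200 bp or wider and under 200 bp on each of chromosomes 2 to 22. Bottom, the share of solitary regions that are 200 bp or wider (%), with 95% exact intervals and a dashed line at the overall 49.4%. Every interval crosses the dashed line, and chromosome 6 has the highest share at 69.0%.

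By cytogenetic band the members were scattered. They fell in 180 bands, of which 121 held 1 member, 39 held 2 and 13 held 3, while 7 bands held 4 or more and together 30 members. Narrow regions fell in 188 bands. A band with a narrow region held 147 of the members (54.9%), a band with a member held 148 of the narrow regions (54.0%), and 89 members (33.2%) and 90 narrow regions (32.8%) shared a band with a clustered region. The bands of the 2 solitary classes therefore overlapped to a similar extent from either side.

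Band 5q35.1 (4.3 Mb) held 5 members, 2 clustered regions and no narrow region. Its members were 200 to 786 bp wide with folds of 4.12 to 4.61 and 28 to 36 reads, spread from 170314816 to 172710161 on chromosome 5. The band has 27 coding genes, the longest being DOCK2 (446 kb), an activator of the GTPase Rac in blood cells. Band 12q21.33 (3.6 Mb, a darkest G-positive band) also held 5 members, of 220 to 667 bp and folds of 3.66 to 5.35, along with 4 narrow and 5 clustered regions.

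Band 7q21.11 held 4 members with folds of 3.97 to 5.49, beside 5 narrow and 8 clustered regions. Band 7q22.1, gene-rich with 119 coding genes at 20.5 per Mb, held 4 members with folds of 3.38 to 4.22, 2 narrow regions and no clustered region. Its longest gene is RELN (518 kb), which encodes the secreted protein reelin. Band 12q23.1 held 4 members with folds of 3.60 to 5.01, beside 1 narrow and 2 clustered regions. Its longest gene is ANKS1B (1250 kb), a synaptic ankyrin-repeat protein. Band 14q12 held 4 members with folds of 4.15 to 4.97 beside 5 narrow and 13 clustered regions, and 15q21.3 held 4 members beside 2 narrow and no clustered region. Bands with 3 members and no narrow region, singled out after their counts were seen, were 9p13.3, 17p13.2, 11q24.3 and 5q35.3. The first 2 of these have 22.6 coding genes per Mb each and hold no clustered region, while 11q24.3 holds 2 and 5q35.3 holds 7.

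At the main setting the interval of the members' share in pale bands lay just above the share of length. The interval of their share in the darkest bands included it. Pale G-negative bands held 136 members (50.7%, interval 44.6 to 56.9), 134 narrow regions (48.9%, interval 42.8 to 55.0) and 43.9% of the length of chromosomes 2 to 22 outside centromere bands. The darkest G-positive bands held 33 members (12.3%, interval 8.63 to 16.9), 47 narrow regions (17.2%, interval 12.9 to 22.2) and 55 clustered regions (20.4%, interval 15.8 to 25.8), on 16.6% of the length. The classes of 25, 50 and 75% staining held 10.4, 13.1 and 13.4% of the members, on 7.29, 13.7 and 14.4% of the length. The intervals of wide and narrow regions overlapped in each of these 5 classes. The place of the pale bands above the share of length depended on the setting. The members' interval was 46.0 to 59.1% with a spacing over 100 kb and 44.7 to 61.3% over 500 kb. It was 43.2 to 55.1% with a spacing over 25 kb and 43.6 to 56.0% at least 1 Mb from chromosome ends, which include the share of length. Length includes assembly gaps, which can hold no region, and was not limited to the places that the rule kept.

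Gene density of the bands did not separate the classes. The bands of members had a median of 5.42 protein-coding genes per Mb (quartiles 3.83 and 8.5, interval of the median 5 to 6), those of narrow regions 5.26 (quartiles 3.51 and 8.75, interval 4.72 to 5.79) and those of clustered regions 5.69 (interval 4.82 to 5.79). Over the length of the same chromosomes the median was 4.55. With genes of any kind counted, the order of the solitary classes turned, at 18.3 per Mb for members and 19.1 for narrow regions. The richest member bands were on chromosome 19, at 19q13.33 with 38.8 and 19q13.42 with 38.5 coding genes per Mb.

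**Figure D5:**
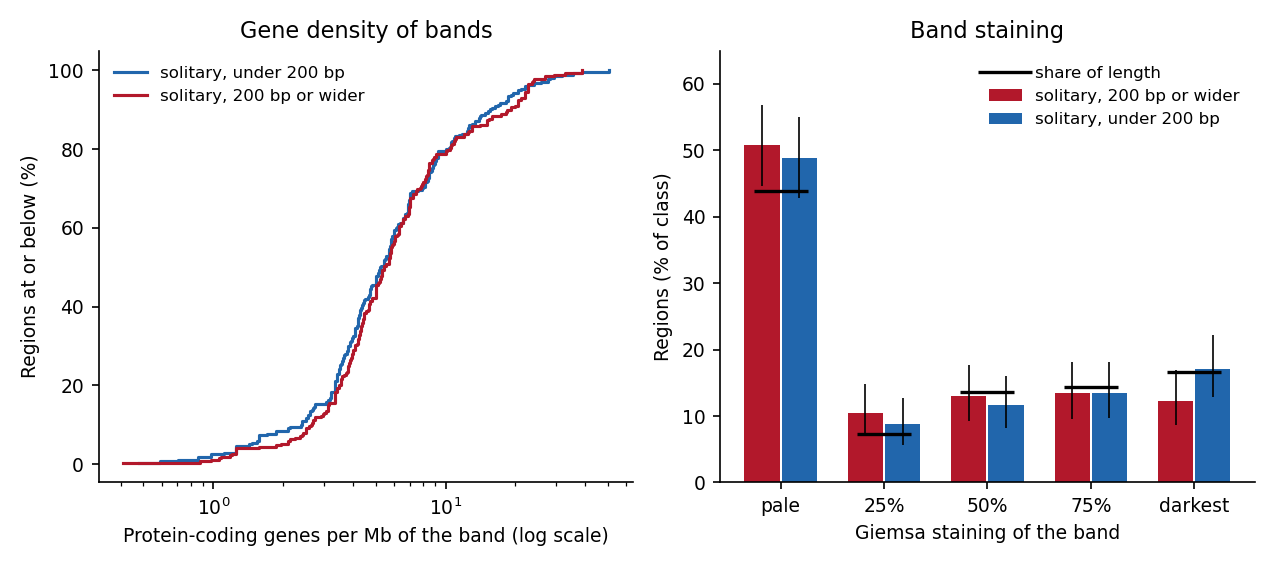
Left, the cumulative share of solitary regions (%) by protein-coding genes per Mb of their band (log scale). Right, the share of each class (%) by Giemsa staining of the band, with 95% exact intervals and a black mark at the share of length. The gene density curves of wide and narrow regions nearly coincide, with medians of 5.42 and 5.26, and the darkest bands hold 12.3% of the members and 17.2% of the narrow regions.

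Bands with a very long gene were no more frequent among members. A protein-coding gene of 500 kb or more, a length chosen after the data were seen, lay in the band of 101 members (37.7%, interval 31.9 to 43.8), 110 narrow regions (40.1%, interval 34.3 to 46.2) and 92 clustered regions (34.2%, interval 28.6 to 40.2), and such bands made up 39.5% of the length. The longest of these genes in member bands was ROBO2 (1743 kb) in 3p12.3, a receptor for the axon guidance protein SLIT. Members lay a median of 31.9 Mb from the chromosome end and 40.9 Mb from the centromere bands, and narrow regions 32.8 and 38.2 Mb, with overlapping intervals of the medians.

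The DMSO list, called on other libraries, gives a measure that did not enter the choice of members. Of the 268 members, 2 overlapped a DMSO region by at least 1 bp (0.746%, interval 0.0905 to 2.67), where all 811 kept treated regions stood at 1.85%. Among narrow regions it was 5 of 274 (1.82%, interval 0.595 to 4.21) and among clustered ones 8 of 269 (2.97%, interval 1.29 to 5.78). These intervals overlap, and no difference between the classes was detectable at these counts. From the other side, the same 2 made up 1.09% (interval 0.133 to 3.89) of the 183 DMSO regions kept by the same rule of place.

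The strongest member was 1 of the 2. At 13q12.3 the DMSO region (31418198 to 31418527, 330 bp) contained the whole member and had its summit 4 bp away, with a fold of 25.3 and a −log10 q of 80.5 in the authors' deposited table for DMSO. The other was at 3p12.3 (chromosome 3, 75270873 to 75271157, 285 bp, fold 4.11, 27 reads), inside a DMSO region of 665 bp with a fold of 9.30 and a summit 117 bp away. Folds of separately called lists are not on 1 scale, so no change between conditions can be read from them. The strongest narrow regions, at 3q23 (98 bp, fold 7.22) and 5q15 (96 bp, fold 6.93), likewise overlapped DMSO regions, with summits 1 bp apart in both cases.

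Most other members were far from DMSO regions. The members' median distance to the nearest DMSO summit was 5.25 Mb (quartiles 1.69 and 12.3), against 5.52 Mb for narrow regions, and 3 members (1.12%) had a DMSO summit within 50 kb. The DMSO list starts at a −log10 p of 10.5, a level that 18 members reached, 1 of which overlapped a DMSO region (5.56%, interval 0.141 to 27.3). Of narrow regions 8 reached it and 2 of these overlapped (25%, interval 3.19 to 65.1). A lack of overlap describes the 2 lists, which start at different levels of significance, and not an absence of breaks in DMSO cells.

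Common fragile sites are loci, mostly in long genes, at which chromosomes break under mild aphidicolin. The bands of their genes held 12 members (4.48%, interval 2.34 to 7.69) and 13 narrow regions (4.74%), against 5.80% of all kept regions and 5.39% of the length. They fell in 6 of the 27 bands of the list. The highest folds were 5.49 in 7q21.11 with MAGI2 and 5.33 in 7q31.1 with IMMP2L (chromosome 7, 114545297 to 114545833), a subunit of the mitochondrial inner membrane peptidase. Then came 5.07 and 4.90 in 15q22.2 with RORA, an orphan nuclear receptor, and 4.64 in 16q23.1 with WWOX (chromosome 16, 77369579 to 77370178), an oxidoreductase gene spanning the fragile site FRA16D, followed by a second 7q21.11 member at 4.46. The bands of FHIT and LRP1B, other well known fragile genes, held no member.

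Bands of repeat expansion disease genes held 10 members (3.73%, interval 1.80 to 6.76) and 16 narrow regions (5.84%, interval 3.37 to 9.31), against 5.43% of all kept regions and 4.08% of the length. The highest folds were 5.04 in 4p14 with RFC1 (chromosome 4, 39349622 to 39349990), the large subunit of the clamp loader of replication, 4.90 and 4.51 in 16q24.2 with JPH3, which encodes junctophilin 3, 4.75 and 4.17 in 16q21 with BEAN1, and 4.37 in 6p22.3 with ATXN1. The member in the band of C9orf72, 9p21.2, was among those of lowest fold at 3.47.

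Bands of replication stress response genes held 12 members (4.48%, interval 2.34 to 7.69) and 13 narrow regions (4.74%), against 4.69% of all kept regions and 5.11% of the length. The highest folds were 5.89 in 14q21.2 with FANCM, a translocase that remodels stalled forks, 4.73 in 3p21.31 with ATRIP, the partner of ATR, and 4.61 in 17q21.33 with EME1, which forms a fork-cutting nuclease with MUS81. They were followed by 4.54 in 11q24.2 with CHEK1, the checkpoint kinase that ATR activates, 4.37 in 3p25.3 with FANCD2 and 4.22 in 17p13.3 with RPA1, a subunit of the protein that coats single-stranded DNA. The band of ETAA1, an activator of ATR, held the 883 bp member of 2p14 at a fold of 3.60. Bands of early replicating fragile site genes held 1 member (0.373%, interval 0.00945 to 2.06), in 6p23 with CD83, a surface protein of dendritic cells, against 0.370% of all kept regions. In each of the 4 lists the members' share had an interval that included that of all kept regions, which contain the members. At these small counts no difference was visible, and none was tested. The lists name bands, not distances to the genes.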

How the data were processed

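Members and lists were chosen with earlier results of these data known. MACS2 2.1.0 stands in the submitters' processing notes as a peak caller, next to STAR 2.5.2a as an aligner, and 2 builds are listed there, hg19 and mm10. How either was set is not given in the sources used here. All 6 samples enter through 2 deposited lists (1133 and 381 regions), called on pooled pull-down against input libraries per the peak names. The deposited fold is a ratio, pileup over local background. Significance was deposited as −log10 p and −log10 q. The deposited score is not used. Positions are hg19, counted from 1. Reads were recovered from fold and p with MACS2's formulas as generally known (pileup and background each plus 1, a Poisson tail for p). They came out whole at 100% of treated regions (tolerance 0.02 reads), with a scaling of 0.567 and a genome background of 5.13 reads. Whole values do not show that these were the formulas used. Summits held 27 to 140 reads over the list. PCR reads are not independent molecules, so intervals cover counting error only.

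Bands came from circlize 0.4.16 (R 4.3.3). Genes of the RefSeq table (GRCh38.p14, 20033 protein-coding) were placed in bands of their own assembly and joined to hg19 bands by name, identical for all 862. Python 3.11.15 with pandas 2.3.3 and scipy 1.17.1 was used. No test between conditions or classes was made, as regions of 1 pooled list are not replicates. Named regions are the 12 of highest and 4 of lowest fold, the 8 widest, the 5 on each side of the width limit, those overlapping a DMSO region, those in the 6 bands with most members (ties by chromosome and start) and up to 6 per gene list. Sequence features were not analysed here, as no hg19 genome was used. Alternatives covered spacing, place, width, significance, fold, background, overlap and band settings.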

Additional observations from a re-analysis of the deposited data

How the results depend on the processing

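Of 106 values recomputed under other settings, 83 stayed within the interval of the reported value (for the number of members, within 1.5 times). The number of members fell from 268 to 147 with a spacing over 500 kb. It fell to 159 with a width of 300 bp or more and to 115 at genome background only. It was 141 with a −log10 q of at least 3 and 136 with a fold of at least 4.5. Both of these filters were applied to the list before spacing was measured again. Regions clustered in the full list could thus count as solitary, and these sets are not subsets of the 268. The share of solitary regions that are wide, 49.4% as reported, was 65.6% with that −log10 q, 68.0% with that fold, 62.2% from 150 bp and 29.3% from 300 bp. The median fold was 4.83 and 4.90 with the filters on q and fold, 4.39 from 300 bp and 4.46 at genome background only, and the median reads were 33 under both filters. The median background was 1 time that of the genome under both filters and at genome background only. The central summits, 32.8% as reported, were 39.0% with the filter on fold, 40.3% from 300 bp and 56.0% for the middle 50% of the width. From 300 bp the overlap with DMSO regions was 0%. Genes of any kind stood at 18.3 per Mb. Filters on fold, q or width change the members by construction. Spacing over 25 or 100 kb, stricter distances to ends and centromeres, counting all treated regions as neighbours and the band of the region's midpoint moved none of these values outside the interval. With a spacing over 25 kb or the stricter distances, however, the interval of the pale bands came to include their share of length. No paired analysis was possible because each list pools both replicates. The depth, 27 to 48 reads at a summit, limits the ranking of single members.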
